A study of Rattus norvegicus with 6 samples.

Results

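The genes described here are the long-chain acyl-CoA synthetases Acsl1, Acsl3, Acsl4, Acsl5 and Acsl6 and the lysophospholipid acyltransferases Lpcat1, Lpcat2 and Lpcat3. They were taken by symbol from a deposited expression table of 30957 rat genes, where each of the 8 has 1 row. The table holds 6 RNA-sequencing libraries of the flexor digitorum longus, a toe flexor of the hind limb, from wild-type Sprague-Dawley rats. Of these, 3 come from muscle 18 h into ACS and 3 from control muscle at 0 h. ACS, acute osteofascial compartment syndrome, is a rise of pressure inside a closed muscle compartment that cuts its blood supply. ACS was produced by tying a low-elastic band around the skin of the knee, with a loop smaller than the limb. The study named Acsl4 in its title together with ferroptosis, a form of cell death that depends on iron and on oxidation of membrane lipids, so the comparison asks how this gene and its relatives differ between ACS and control muscle.

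All 6 libraries carry ACS in the treatment field of the labels, and the groups were taken from the sample titles. The sources used here give neither the age and sex of the rats nor whether each library is from its own rat. P-values below therefore measure spread among these samples only, and that spread may be technical. The controls were taken at 0 h and not at 18 h, so ACS and time cannot be told apart.

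Free fatty acids enter metabolism only after a synthetase joins them to coenzyme A. The ACSL enzymes do this for long chains and differ in the fatty acids they prefer and in where in the cell they sit. In mouse muscle ACSL1 provides most of this activity and feeds mitochondrial oxidation, whereas ACSL4 prefers arachidonic acid and other polyunsaturated chains. LPCAT enzymes then place such acyl groups into lysophospholipids, the phospholipids that have lost a chain, and LPCAT3 favours polyunsaturated ones. ACSL4 and LPCAT3 acting in sequence supply the membrane phospholipids that are oxidised in ferroptosis.

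Library totals lay between 14340865 and 21003928 counts. ACS replicate 1 stood apart, with 43.4% of its counts from the mitochondrial chromosome, against 4.82% and 5.33% in ACS replicates 2 and 3 and 7.52% to 8.60% in control libraries. Values of the 8 genes are therefore given per library, and their differences also without that library. Tested muscle fibre markers were abundant in all libraries, with a summed level of 81092 to 193602 CPM (counts scaled to library size with TMM factors) in ACS and 123698 to 144815 CPM in control muscle, and none of the 7 markers matched was at 0. In whole muscle, fewer cells of a type and less RNA per cell cannot be told apart.

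Acsl4 was the member whose ACS libraries all lay above control, while Acsl1 was the member whose ACS libraries all lay below it. For the other 6 genes the groups overlapped. No member passed the threshold over all genes in edgeR's quasi-likelihood test (adjusted p under 0.05), where 4.14% of the 12873 tested genes did. Of the 8 members 1, Acsl4, had an unadjusted p under 0.05, against 23.5% of all tested genes. The groups did not overlap in TMM-scaled CPM for 2 of the 8, against 31.5% of all tested genes, so these counts are at or under the background. Among other tools and settings, DESeq2 and limma-voom with quality weights called 1 member, Acsl4 (11.7% and 11.0% of all genes called), as did edgeR without ACS replicate 3 (12.7%). None was called by limma-voom (2.59%), limma on log2(FPKM + 1) (4.68%), edgeR on library totals (4.45%) or edgeR without ACS replicate 1 (6.68%). The median log2 fold change was 0.01 over the 8 members and -0.01 over all tested genes.

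Acsl4 (ENSRNOG00000019180, chromosome X, 113596239 to 113659944 on Rnor 6.0), the synthetase for polyunsaturated chains, measured 109, 73.7 and 60.2 CPM in ACS replicates 1, 2 and 3, against 27.3, 36.1 and 41.9 CPM in control replicates 1, 2 and 3. The lowest ACS library was thus above the highest control library. The log2 fold change was 1.2 (SE 0.305, 95% interval 0.51 to 1.90), about 2.30-fold, with an adjusted p of 0.0603 in edgeR. Per length, the level was 16.4, 14.9 and 11.5 FPKM (fragments per kilobase of gene, scaled to the library total) in ACS replicates 1, 2 and 3, against 6.0, 8.18 and 9.76 FPKM in control replicates 1, 2 and 3. ACS replicate 1 was the highest library, and without it the log2 fold change was 0.93 (adjusted p = 0.0613 in edgeR).

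Acsl1 (ENSRNOG00000010633, chromosome 16, 48937456 to 49003246) was the most abundant member per length in both groups. It measured 138, 326 and 280 CPM in ACS replicates 1, 2 and 3, against 362, 327 and 443 CPM in control replicates 1, 2 and 3. ACS replicate 2, at 325.8 CPM, lay just under the lowest control library, at 326.5 CPM, so the groups were barely separated. Its log2 fold change was -0.61 (SE 0.361, 95% interval -1.43 to 0.22, adjusted p = 0.344 in edgeR). Leaving out ACS replicate 1, the lowest library, gave -0.32 (adjusted p = 0.497 in edgeR).

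The promoters of Acsl4 and Acsl1 are shown because these are the 2 members whose groups were separated, in opposite directions. The sequences are the 250 bases before the annotated start in RefSeq, on build GRCr8 and on the minus strand, at chrX:110803262-110803511 for Acsl4 and chr16:52532393-52532642 for Acsl1. All 8 members were matched to the RefSeq table by symbol. Capitals mark matches to 9 motifs, searched on both strands.
Acsl4: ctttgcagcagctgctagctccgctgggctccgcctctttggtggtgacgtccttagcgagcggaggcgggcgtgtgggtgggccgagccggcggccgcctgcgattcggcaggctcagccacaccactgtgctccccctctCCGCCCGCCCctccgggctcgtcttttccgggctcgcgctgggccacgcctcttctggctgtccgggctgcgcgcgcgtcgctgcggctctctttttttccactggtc
Acsl1: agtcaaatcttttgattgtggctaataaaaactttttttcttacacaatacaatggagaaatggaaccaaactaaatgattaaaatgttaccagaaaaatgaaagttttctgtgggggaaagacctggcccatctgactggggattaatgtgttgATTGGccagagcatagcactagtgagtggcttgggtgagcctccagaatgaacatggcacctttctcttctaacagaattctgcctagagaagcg

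The Acsl4 window is rich in G and C (70.4%, with 28 CpG) and the Acsl1 window poor (40%, with 1 CpG), against a median of 51.2% over all 33469 promoter windows of this length. In Acsl4 the capitals are 2 overlapping GC boxes (GGGCGG), which 30.5% of all windows hold. In Acsl1 they are 1 CCAAT box (CCAAT), held by 34.0% of windows. The 8 windows held no AP-1 site (TGANTCA, 6.34% of windows), cAMP response element (TGACGTCA, 1.59%), E-box (CACGTG, 5.59%), NF-kB site (1.3%) or PPAR response element (0.0508%). The antioxidant response core (TGACNNNGC, 10.1%) was in that of Acsl5 and the hypoxia response core (ACGTG, 16.6%) in that of Lpcat1. E-box and hypoxia core share letters, so a match to the first is also one to the second. A match is a description of letters in this window and not evidence of binding.

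Acsl6 (ENSRNOG00000026745, chromosome 10, 39655455 to 39719312), best known for enriching brain lipids in docosahexaenoic acid, measured 45.9, 99.7 and 134 CPM in ACS replicates 1, 2 and 3, against 157, 173 and 83.9 CPM in control replicates 1, 2 and 3. Control replicate 3 lay below 2 of the ACS libraries, so the groups overlapped. Acsl6 had a log2 fold change of -0.57 (SE 0.432, 95% interval -1.55 to 0.42, adjusted p = 0.460 in edgeR), or -0.24 without ACS replicate 1.

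Acsl3 (ENSRNOG00000014718, chromosome 9, 84569597 to 84593565), an enzyme of the endoplasmic reticulum and lipid droplets, measured 47.2, 26.7 and 65.7 CPM in ACS replicates 1, 2 and 3, against 43.9, 68.3 and 38.2 CPM in control replicates 1, 2 and 3. The groups spanned nearly the same range. Acsl3 had a log2 fold change of -0.11 (SE 0.374, 95% interval -0.96 to 0.74, adjusted p = 0.883 in edgeR), and it was 0.14 without ACS replicate 2 and 0.13 without control replicate 2.

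Acsl5 (ENSRNOG00000016265, chromosome 1, 276240703 to 276290008), a mitochondrial and reticular isoform abundant in intestine, measured 23.8, 7.87 and 4.41 CPM in ACS replicates 1, 2 and 3, against 5.41, 8.90 and 6.44 CPM in control replicates 1, 2 and 3. ACS replicate 1 alone was high, while ACS replicate 2 lay inside the control range and ACS replicate 3 below it. The log2 fold change of 0.79 (SE 0.575, 95% interval -0.52 to 2.09, adjusted p = 0.440 in edgeR) was -0.17 without ACS replicate 1.

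**Figure D1:**
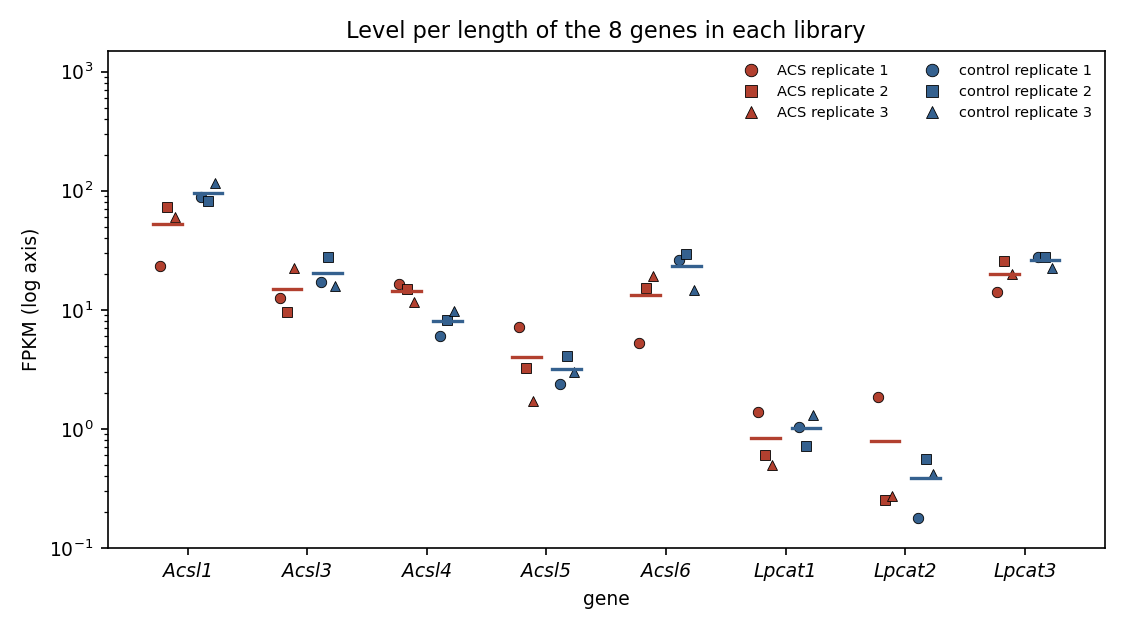
Level per length of each gene in each library, in FPKM on a log axis, with ACS libraries (red) left of control libraries (blue) and bars at the mean of 3. Acsl4 is the gene whose ACS libraries (11.5 to 16.4 FPKM) all lie above control (6.0 to 9.76 FPKM). ACS replicate 1 (circle) is the highest ACS library for Acsl4, Acsl5, Lpcat1 and Lpcat2.

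Lpcat3 (ENSRNOG00000012269, chromosome 4, 157181795 to 157222996), the acyltransferase for polyunsaturated chains, measured 36.0, 48.9 and 40.2 CPM in ACS replicates 1, 2 and 3, against 48.7, 47.1 and 37.0 CPM in control replicates 1, 2 and 3. The ranges nearly coincided. Lpcat3 had a log2 fold change of -0.08 (SE 0.246, 95% interval -0.64 to 0.48, adjusted p = 0.862 in edgeR), the narrowest interval of the 8 genes. Its locus overlaps that of Emg1 on the other strand, with 909 counts in ACS and 1571 in control libraries, and the sources used here do not say whether counting used the strand. Reads of the pair may therefore not be told apart.

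Lpcat1 (ENSRNOG00000017930, chromosome 1, 32379432 to 32429917), known for making the saturated phosphatidylcholine of lung surfactant, measured 6.74, 2.16 and 1.90 CPM in ACS replicates 1, 2 and 3, against 3.41, 2.32 and 4.09 CPM in control replicates 1, 2 and 3. ACS replicate 1 was above every control library, and the other ACS libraries were below every control library. Its log2 fold change was 0.11 (SE 0.540, 95% interval -1.12 to 1.34, adjusted p = 0.918 in edgeR), or -0.69 without ACS replicate 1 (adjusted p = 0.324 in edgeR). The libraries held 34 to 72 Lpcat1 counts in ACS and 48 to 99 in control muscle.

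Lpcat2 (ENSRNOG00000016643, chromosome 19, 15469303 to 15540773), an inducible enzyme of macrophages that also makes platelet-activating factor, measured 8.14, 0.823 and 0.949 CPM in ACS replicates 1, 2 and 3, against 0.536, 1.64 and 1.2 CPM in control replicates 1, 2 and 3. These values rest on 87, 16 and 17 counts in ACS replicates 1, 2 and 3 and on 11, 34 and 29 counts in control replicates 1, 2 and 3. Only ACS replicate 1 lay outside the control range. The log2 fold change of 1.51 (SE 0.901, 95% interval -0.54 to 3.56, adjusted p = 0.344 in edgeR) was -0.35 without that library.

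**Figure D2:**
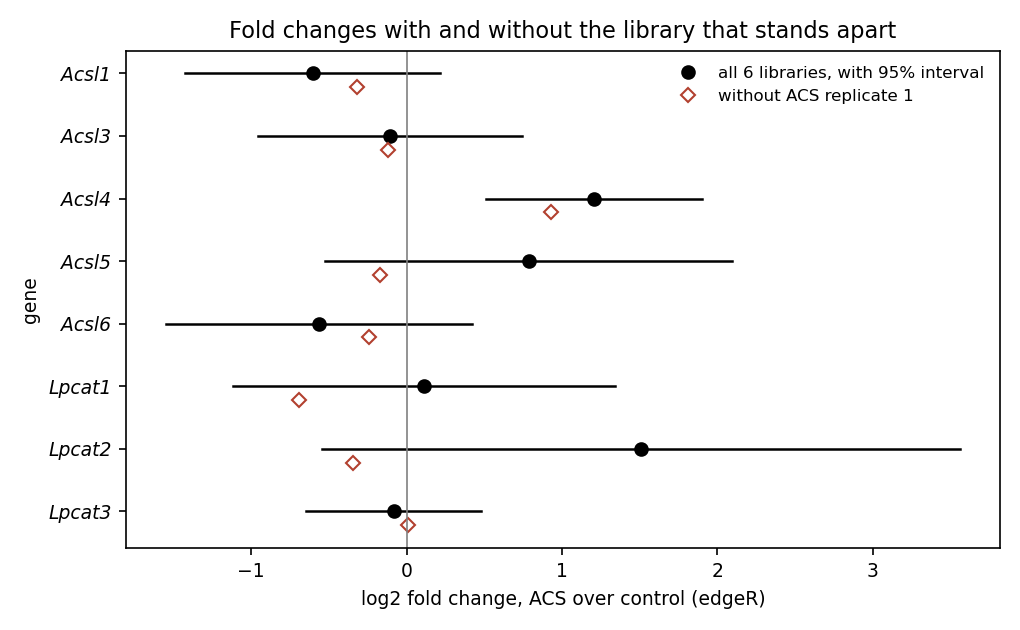
Log2 fold change of each gene, ACS over control, from edgeR with all 6 libraries (black, with the 95% interval) and without ACS replicate 1 (open diamond). Acsl4 stays at 0.93 without that library, while Acsl5, Lpcat1 and Lpcat2 lie below 0 there, at -0.17, -0.69 and -0.35.

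ACS replicate 1 was the highest of the 6 libraries for Acsl4, Acsl5, Lpcat1 and Lpcat2 and the lowest for Acsl1, Acsl6 and Lpcat3, and it was also the highest for markers of leukocytes. The summed level of 10 neutrophil markers was 460, 43.7 and 90.7 CPM in ACS replicates 1, 2 and 3, against 2.56 to 8.26 CPM in control libraries. That of 10 monocyte and macrophage markers was 1754, 167 and 117 CPM in ACS replicates 1, 2 and 3, against 48.0 to 80.8 CPM in control libraries. Lyz2 alone held 1553, 94.2 and 78.0 CPM of it in ACS replicates 1, 2 and 3, against 22.2 to 36.6 CPM in control libraries. Of the 9 tested macrophage markers 4 were separated higher, where 16.7% of all tested genes were. Adgre1 was the 1 separated lower (14.8% of all tested genes), at 0.412 to 1.22 CPM in ACS and 1.37 to 3.19 CPM in control libraries. Of the 10 neutrophil markers 2 reached a mean of 1 CPM in control muscle, where Fpr2, a receptor for formylated peptides, was at 0. The 8 tested neutrophil markers were all higher in edgeR, with and without ACS replicate 1, against 7 in DESeq2 and 0 in limma-voom. Of the 8, 7 were under the minimum of the filter on low counts in at least 1 control library, so they entered the test through their ACS libraries and had to differ. Of the 9 tested macrophage markers, none of which was at 0, edgeR called 0, with 6 higher and 1 lower at an unadjusted p under 0.05, and DESeq2 called 4 higher and limma-voom 0. EdgeR called 1 macrophage marker higher without ACS replicate 1, Lyz2. Of all tested genes edgeR called 3.43% higher, and 23.5% were at an unadjusted p under 0.05 in either direction. DESeq2 called 11.7% of all genes. The part of these cells in the values of the 8 genes was not tested.

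Other marker lists were also read by their summed level. Adipocyte markers, which matter here because fat expresses much Acsl1, lay at 291, 79.7 and 28.9 CPM in ACS replicates 1, 2 and 3, against 50.8 to 94.6 CPM in control libraries. Fibroblast markers lay at 2318 to 2960 CPM in ACS and 690 to 1076 CPM in control libraries, with Col1a2 listed at 0 in all 6. Endothelial markers lay at 176 to 522 CPM in ACS and 232 to 366 CPM in control libraries. The adipocyte and endothelial ranges overlapped, and the fibroblast ranges did not. Most of the fibroblast sum was Col1a1 (769 to 1672 CPM in ACS and 112 to 511 CPM in control libraries) and Col3a1 (573 to 1050 CPM and 304 to 414 CPM). Of the 5 tested fibroblast markers 3 were separated higher, these and Pdgfra, where 16.7% of all tested genes were. Dcn and Lum overlapped. Schwann cell markers lay at 54.3 to 85.0 CPM in ACS and 88.6 to 120.05 CPM in control libraries. Smooth muscle markers lay at 100.3 to 148 CPM in ACS and 150.04 to 210 CPM in control libraries. Both were lower in every ACS library, the smooth muscle markers barely (147.8 CPM in ACS replicate 1 and 150.04 CPM in control replicate 1). Of the tested markers 2 of 6 Schwann cell and 1 of 4 smooth muscle markers were separated lower, where 14.8% of all tested genes were. Red cell markers lay at 1747 to 10321 CPM in ACS and 445 to 1221 CPM in control libraries, and lymphocyte markers, none abundant enough to be tested, at 0.446 to 1.78 CPM in ACS and 0.165 to 0.878 CPM in control libraries.

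Of the tested members of these lists edgeR called 2 red cell markers higher, Hbb and Alas2, and no other. At an unadjusted p under 0.05 were 4 of 4 red cell and 4 of 5 fibroblast markers (higher) and 1 of 6 endothelial and 1 of 6 Schwann cell markers (lower). None of 5 adipocyte, 4 smooth muscle and 7 muscle fibre markers was. Of all tested genes 23.5% were, in either direction. DESeq2 called 2 fibroblast markers higher, 1 Schwann cell marker lower and 4 red cell markers higher. Limma-voom called 1 red cell marker higher, with 0 in the other lists for both tools. Of all genes DESeq2 called 11.7% and limma-voom 2.59%. Without ACS replicate 1 edgeR called 2 endothelial markers lower, Emcn and Tie1, 1 fibroblast marker higher, Col1a1, and the same 2 red cell markers higher.

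**Figure D3:**
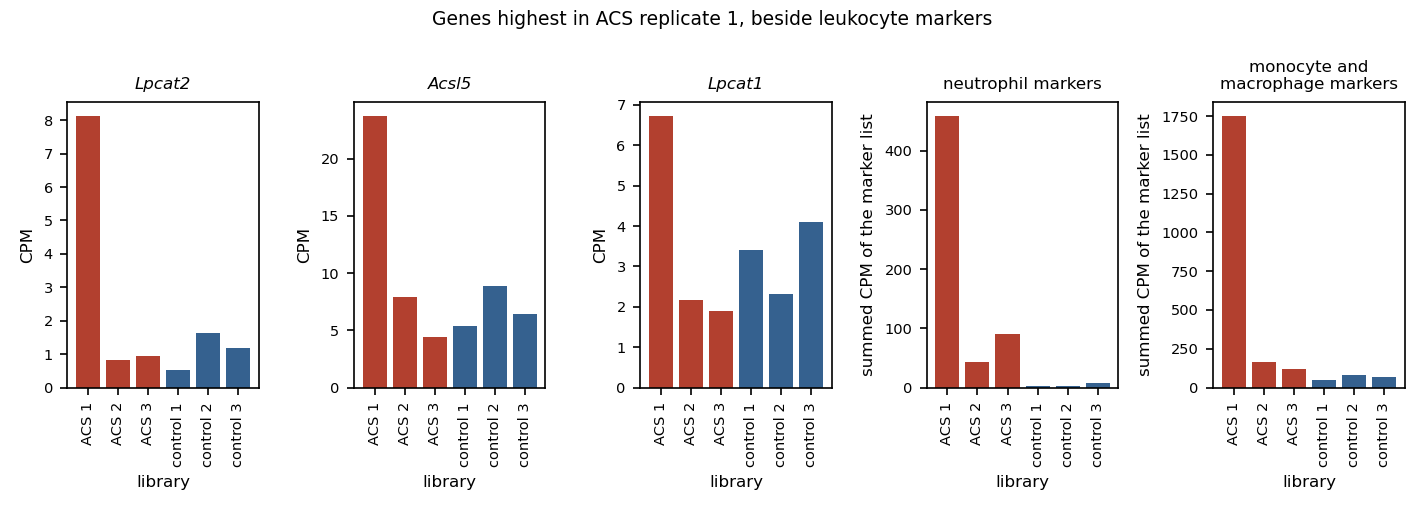
Level of Lpcat2, Acsl5 and Lpcat1 (CPM) and summed level of the neutrophil and the monocyte and macrophage markers (summed CPM) in each library, ACS in red and control in blue. ACS replicate 1 is the highest library in every panel, with 8.14 CPM for Lpcat2 and 1754 summed CPM for the macrophage markers. Of that sum Lyz2 alone was 1553 CPM. Acsl4, also highest in that library, is not drawn.

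The make-up of the synthetase family was compared as the share of each isoform in the summed FPKM of the 5, which does not depend on how libraries are scaled. Acsl4 took 25.3%, 12.8% and 10.03% in ACS replicates 1, 2 and 3, against 4.27%, 5.38% and 6.15% in control replicates 1, 2 and 3. Every ACS library was above every control library. Acsl4 FPKM was higher and the summed FPKM of the family lower in every ACS library. The separation of the share and its exact p therefore follow from those values. The mean share was 16.1% ± 8.16 in ACS and 5.27% ± 0.945 in control muscle (SD, n = 3 each), a difference of 10.8 percentage points. A two-sided exact permutation test gave p = 0.1, the smallest that 3 libraries against 3 allow, and an adjusted p of 0.8 over the 8 shares tested. The ACS mean was 11.4% and the difference 6.15 points when ACS replicate 1 was left out.

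Acsl1 took 35.9%, 63.1% and 52.1% of the family in ACS replicates 1, 2 and 3, against 63.2%, 54.3% and 72.6% in control replicates 1, 2 and 3. It was the largest share in every library, and the groups overlapped (exact permutation p = 0.2). Acsl6 took 8.05% to 16.9% in ACS and 9.30% to 19.5% in control libraries (exact permutation p = 0.5). Acsl3 took 8.27% to 19.6% in ACS and 10.01% to 18.2% in control libraries (exact permutation p = 0.8). Acsl5 took 11.1%, 2.76% and 1.48% in ACS replicates 1, 2 and 3, against 1.71% to 2.67% in control libraries (exact permutation p = 0.6), so its share was high in ACS replicate 1 alone.

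**Figure D4:**
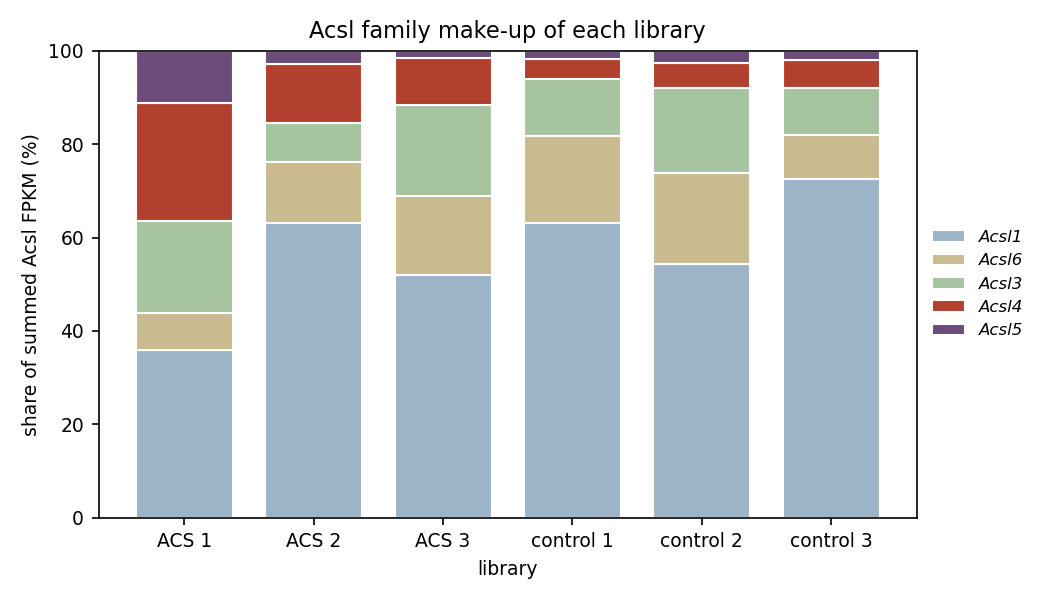
Share of each isoform in the summed Acsl FPKM of each library, in percent, ACS libraries left of control libraries. The Acsl4 segment spans 10.03% to 25.3% in ACS and 4.27% to 6.15% in control libraries, and Acsl1 is the largest segment in all 6.

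The summed FPKM of the family, divided by the TMM factor of each library, was 86.8, 116 and 121 in ACS replicates 1, 2 and 3, against 129, 136 and 138 in control replicates 1, 2 and 3. Each ACS library was below each control library, as were 14.8% of all tested genes. As deposited, without that factor, the sums were 64.8, 117 and 115 FPKM in ACS replicates 1, 2 and 3, against 141, 152 and 159 FPKM in control replicates 1, 2 and 3. Acsl1 holds most of these sums in control muscle, so they largely follow that gene.

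Among the acyltransferases Lpcat3 held most of the summed FPKM of Lpcat1, Lpcat2 and Lpcat3, with 81.4%, 96.8% and 96.3% in ACS replicates 1, 2 and 3, against 95.8%, 95.6% and 92.9% in control replicates 1, 2 and 3. Only ACS replicate 1 lay below the control range (exact permutation p = 1). In that library Lpcat2 took 10.6% and Lpcat1 8.03%, and in the other ACS libraries Lpcat2 took 0.941% and 1.31% and Lpcat1 2.26% and 2.40%. In control libraries Lpcat2 took 0.610% to 1.93% (exact permutation p = 0.8) and Lpcat1 2.49% to 5.41% (exact permutation p = 1).

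Ratios of FPKM within a library set Acsl4 against single members. The ratio of Acsl4 to Acsl1 was 0.706, 0.203 and 0.193 in ACS replicates 1, 2 and 3, against 0.0676, 0.0991 and 0.0847 in control replicates 1, 2 and 3. The groups were separated, and the difference of the mean log2 ratios was 1.87, or 3.65-fold. This separation restates that of both genes, since Acsl4 FPKM lay above and Acsl1 FPKM below control in every ACS library. Leaving out ACS replicate 1 gave 1.26, or 2.39-fold.

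The ratio of Acsl4 to Lpcat3, the pair that acts in sequence on polyunsaturated chains, was 1.16, 0.579 and 0.575 in ACS replicates 1, 2 and 3, against 0.216, 0.295 and 0.435 in control replicates 1, 2 and 3. Every ACS library again lay above every control library, by a mean of 2.41-fold, or 1.91-fold without ACS replicate 1. Against Acsl3 the ratio was 0.513 to 1.55 in ACS and 0.296 to 0.614 in control libraries. Against Acsl6 it was 0.594 to 3.15 in ACS and 0.230 to 0.661 in control libraries, and both these ranges overlapped. The ratio of Acsl6 to Acsl1 was near the same in both groups, 0.252 ± 0.0633 in ACS and 0.260 ± 0.119 in control muscle (SD, n = 3 each), and that of Acsl5 to Acsl1 was high in ACS replicate 1 alone. Of the 6 ratios computed, the 2 separated ones had an exact permutation p of 0.1, the smallest possible, and an adjusted p of 0.3 over the 6. For both ratios that p followed from the FPKM ranges of the genes and adds nothing to them. For the ratio to Lpcat3, Acsl4 was at least 11.5 FPKM in ACS and at most 9.76 FPKM in control libraries. Lpcat3 was at most 25.8 FPKM in ACS and at least 22.4 FPKM in control libraries. Any pairing of values within these ranges gives separated ratios.

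**Figure D5:**
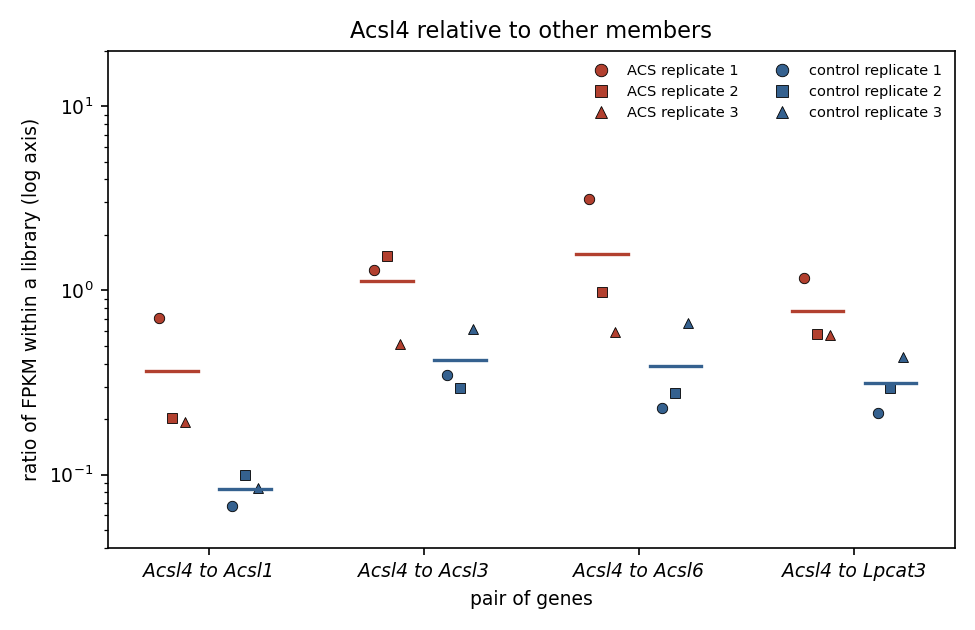
Ratio of Acsl4 FPKM to that of 4 other members within each library, on a log axis, with ACS libraries (red) left of control libraries (blue) and bars at the mean of 3. The groups are separated for the ratios to Acsl1 and Lpcat3 and overlap for those to Acsl3 and Acsl6.

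By level per length the order in ACS muscle was Acsl1 (52.2 ± 26.1 FPKM), Lpcat3 (19.98 ± 5.84 FPKM), Acsl3 (14.9 ± 6.68 FPKM), Acsl4 (14.3 ± 2.51 FPKM), Acsl6 (13.3 ± 7.29 FPKM), Acsl5 (4.05 ± 2.85 FPKM), Lpcat1 (0.830 ± 0.489 FPKM) and Lpcat2 (0.789 ± 0.913 FPKM; SD, n = 3 each). Only Acsl5 and Lpcat1 were neighbours whose libraries did not overlap there. In control muscle the order was Acsl1 (95.5 ± 17.4 FPKM), Lpcat3 (26.0 ± 3.10 FPKM), Acsl6 (23.5 ± 7.76 FPKM), Acsl3 (20.2 ± 6.43 FPKM), Acsl4 (7.98 ± 1.89 FPKM), Acsl5 (3.16 ± 0.840 FPKM), Lpcat1 (1.02 ± 0.293 FPKM) and Lpcat2 (0.385 ± 0.193 FPKM; SD, n = 3 each). There Lpcat3 overlapped with Acsl6 and Acsl6 with Acsl3, and the other neighbours did not overlap. Acsl4 thus lay below Acsl3 and Acsl6 in every control library. It lay above both in ACS replicate 1, between them in ACS replicate 2 and below both in ACS replicate 3.

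The genes whose levels followed Acsl4 most closely over the 6 libraries were Hnrnpa1, U2af1, Gtf2a2, Zfc3h1 and Sept2, by Pearson correlation of log2 CPM among 6669 genes with a mean of at least 10 CPM. Hnrnpa1 and U2af1 encode RNA-binding splicing proteins, Gtf2a2 a subunit of a general transcription factor and Sept2 a septin of the cytoskeleton. Their r lay between 0.991 and 0.998 over 6 libraries that fall into 2 groups and share ACS replicate 1, and 591 of the candidate genes reached 0.9. Hnrnpa1 measured 164, 106 and 72.4 CPM in ACS replicates 1, 2 and 3, against 26.3, 36.8 and 49.1 CPM in control replicates 1, 2 and 3, and like Acsl4 was highest in ACS replicate 1. Hnrnpa1 has near-identical copies elsewhere in the genome and Gtf2a2 overlaps Bnip2 on the same strand, so the reads of both are uncertain.

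Other enzymes of acyl-CoA and phospholipid metabolism were read from 7 lists with 90 entries, of which 87 were matched and 63 tested. At an adjusted p under 0.05 in edgeR 1 gene was higher, where 3.43% of all tested genes were, and 1 lower, where 0.707% were. At an unadjusted p under 0.05 in edgeR were 23.5% of all tested genes, in either direction. DESeq2 called 11.7% and limma-voom 2.59% of all genes, and edgeR without ACS replicate 1 called 6.68%. The median log2 fold change of the tested members was -0.65 for other acyl-CoA synthetases, -0.28 for acyl-CoA thioesterases, -0.14 for acyl-CoA binding proteins, -0.19 for other glycerophospholipid acyltransferases and -0.31 for phospholipases A2. It was 0.30 for desaturases and elongases and 2.06 for lipoxygenases and lipid peroxidation reductases, against -0.01 over all genes. The 7 log2 fold changes behind the 2.06 were -0.38, -0.18, 0.73, 0.91, 1.53, 1.84 and 6.01 without ACS replicate 1. Of these 7 genes, 2 were under the minimum of the filter on low counts in at least 1 control library.

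Of 9 tested members of the other acyl-CoA synthetases edgeR called 0, with 1 at an unadjusted p under 0.05. Acss2, which activates acetate, measured 40.5 ± 9.33 CPM in ACS and 81.7 ± 5.98 CPM in control muscle (SD, n = 3 each; adjusted p = 0.0614 in edgeR). Its groups did not overlap, and DESeq2 called it lower while limma-voom did not. Its log2 fold change was -1.01, or -0.85 with ACS replicate 1 left out.

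Of 8 acyl-CoA thioesterases, which undo the synthetase reaction, edgeR called 0. At an unadjusted p under 0.05, 1 was higher and 2 lower, where 23.5% of all tested genes were in either direction. DESeq2 called 1 higher and 1 lower and limma-voom 0, and edgeR without ACS replicate 1 called 1 higher, Acot11. Acot2, a mitochondrial member with the highest mean CPM over the 6 libraries, measured 25.2, 68.7 and 14.9 CPM in ACS replicates 1, 2 and 3, against 22.0, 25.2 and 33.7 CPM in control replicates 1, 2 and 3. That rank came from ACS replicate 2, and in control muscle Acot13 was higher, at 33.9 CPM against 27.0 CPM for Acot2. The log2 fold change of Acot2 was 0.43 (adjusted p = 0.638 in edgeR), 0.63 without ACS replicate 1 and -0.48 without ACS replicate 2. It overlaps Heatr4 on the other strand.

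Of 5 acyl-CoA binding proteins edgeR, DESeq2 and limma-voom called 0, with 0 at an unadjusted p under 0.05. Dbi, the main carrier of acyl-CoA, measured 13.8, 26.3 and 54.2 CPM in ACS replicates 1, 2 and 3, against 37.9, 51.0 and 52.9 CPM in control replicates 1, 2 and 3. The groups overlapped, with a log2 fold change of -0.58 (adjusted p = 0.463 in edgeR) that was -0.23 without ACS replicate 1 and -1.23 without ACS replicate 3. It overlaps LOC288978 on the other strand.

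Of 14 other glycerophospholipid acyltransferases edgeR called 0. At an unadjusted p under 0.05, 3 were higher and 1 lower, where 23.5% of all tested genes were in either direction. DESeq2 called 1 higher and limma-voom 0. Agpat1, which makes phosphatidic acid, measured 23.7, 52.0 and 100.7 CPM in ACS replicates 1, 2 and 3, against 101.6, 65.7 and 80.9 CPM in control replicates 1, 2 and 3. The groups overlapped, with a log2 fold change of -0.49 (adjusted p = 0.557 in edgeR) that was -0.12 without ACS replicate 1 and -1.13 without ACS replicate 3. It overlaps 2 genes on the other strand, Egfl8 and C4a. Leaving out ACS replicate 1, edgeR called 2 higher, Agpat9 and Agpat3. Mboat7, which places arachidonic acid into phosphatidylinositol, was listed at 0 in all 6 libraries.

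Of 11 phospholipases A2, which release the fatty acids and lysophospholipids that ACSL and LPCAT enzymes use, 1 fell in edgeR. At an unadjusted p under 0.05, 2 were higher and 3 lower, where 23.5% of all tested genes were in either direction. DESeq2 called 1 higher, Pla2g2a, and 2 lower, Pnpla6 and Pla2g4b, and limma-voom called 1 lower, Pla2g4b. Pla2g2a, 1 of the 2 higher at an unadjusted p under 0.05 in edgeR, had 9 counts in control replicate 2. That is under the minimum of the filter on low counts, so Pla2g2a entered the edgeR test through its ACS libraries. Pla2g4b, a cytosolic member, measured 4.21, 3.19 and 2.73 CPM in ACS replicates 1, 2 and 3, against 9.51, 9.53 and 8.34 CPM in control replicates 1, 2 and 3. All ACS libraries were below all control libraries, with a log2 fold change of -1.44 (SE 0.314, adjusted p = 0.0444 in edgeR), and it was also called without ACS replicate 1. It passed under 12 of 19 alternatives, with adjusted p from 0.000843 to 0.193, and not without ACS replicate 2 or any control library, with the replicate block, with the ji libraries as a term (adjusted p = 0.0646 in edgeR) or without both of them (adjusted p = 0.12 in edgeR).

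Of 9 fatty acid desaturases and elongases edgeR, DESeq2 and limma-voom called 0, with 0 at an unadjusted p under 0.05. Tecr, the reductase of the elongation cycle, measured 166 ± 21.2 CPM in ACS and 160 ± 40.4 CPM in control muscle (SD, n = 3 each). Its log2 fold change was 0.05 (adjusted p = 0.934 in edgeR), or 0.08 without ACS replicate 1. That direction turned with other scalings and with some libraries left out.

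Of 7 lipoxygenases and lipid peroxidation reductases 1 rose in edgeR. At an unadjusted p under 0.05, 4 were higher and 0 lower, where 23.5% of all tested genes were in either direction. DESeq2 called 3 higher, Alox5ap, Aloxe3 and Alox15, and limma-voom 0. Aloxe3, an epidermal enzyme that converts lipid hydroperoxides, had 57, 11 and 74 counts in ACS replicates 1, 2 and 3, against 0, 0 and 2 counts in control replicates 1, 2 and 3. The count ratio, scaled to library size with TMM factors, was 96.6. Its exact binomial 95% interval of 26.3 to 806 takes those factors as given and covers counting error only. The adjusted p in edgeR was 0.0291. The ratio was 74.4 (19.97 to 624) with ACS replicate 1 left out, and the lowest of the ratios with 1 library left out was 66.1, without control replicate 2. Leaving out control replicate 3 left no control count. The gene did not pass with any control library left out, in limma-voom or without both libraries described with ji, and its adjusted p lay between 2.6e-05 and 0.164 over the alternatives run. It entered the test only through its ACS libraries and so had to differ.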

How the data were processed

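Total RNA depleted of ribosomal RNA was sequenced in 3 ACS and 3 control libraries, per the labels' protocols. The authors deposited 1 table, with a read count (whole numbers) and an FPKM value for each gene and library. FPKM equalled the count over 1 gene length and the library total in all 17185 genes checked, to within 0.1%. The tools HISAT2 2.0.4 and StringTie 1.3.0 and the genome build Rnor 6.0 come from the submitters' processing notes, per the labels. The counting tool, its strand setting and its handling of multi-mapping reads are not given by the sources used here.

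Counts of genes kept by filterByExpr (minimum count 10, minimum total count 15; 12873 genes, all 8 members among them) were tested in edgeR 4.0.16 (R 4.3.3; limma 3.58.1, DESeq2 1.42.0) with TMM factors, the quasi-likelihood F test and Benjamini-Hochberg adjustment over all of them. Standard errors come from the F statistic. Intervals are at 95%. Shares and ratios of FPKM were tested by two-sided exact permutation (scipy 1.17.1). The fits were also run on simulated counts. Those had the same gene means in every library of a group, so none stood apart as ACS replicate 1 does, and that setting was not tested. At these depths, genes with few counts such as Lpcat2 are imprecise.

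The members and lists were chosen with earlier results of these data known. Named genes are the 8 members, up to 3 called members of each list with the smallest adjusted p or else its most abundant tested member, and the 5 genes most like Acsl4. Genes named outside this rule were chosen after their values were seen. Of 90 pathway and 71 marker entries 87 and 66 were matched by symbol, some through an older symbol in RefSeq. No pair within a group agreed within sampling noise (chi-square per degree of freedom of at least 38.2). Alternatives covered scaling, test, filter, unit, pseudocount, a replicate block, the libraries described with "ji" and leaving out each library. The ji libraries are ACS replicate 3 and control replicate 3. What "ji" stands for is not given by the sources used here. Figures were drawn with matplotlib 3.10.9.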

Additional observations from a re-analysis of the deposited data

How the results depend on the processing

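Of 148 values of the 8 members under alternatives, 131 kept the direction and the side of the threshold. Acsl4 passed in 3 of 19: DESeq2 (adjusted p = 0.00923), limma-voom with quality weights, chosen after seeing the data (adjusted p = 0.0261), and without ACS replicate 3 (adjusted p = 0.0287). Members higher therefore numbered 1 there and 0 elsewhere, and members lower 0 throughout. These settings called 11.7%, 11.0% and 12.7% of all genes. Over all alternatives the log2 fold change of Acsl4 lay between 0.78 and 1.52 and its adjusted p reached 0.255.

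Some log2 fold changes turned direction, and the cause was not tested. Acsl3 was at 0.14 without ACS replicate 2 and 0.13 without control replicate 2, Acsl5 at -0.17 and Lpcat2 at -0.35 without ACS replicate 1, and Lpcat3 at 0.0080 there and 0.0082 with quality weights. Lpcat1 was at -0.31 with library totals, -0.19 with limma-voom, -0.16 and -0.35 with limma on log2(FPKM + 1) and log2(FPKM + 0.1), -0.067 with the replicate block, -0.42 with quality weights, -0.69 without ACS replicate 1 and -0.14 without control replicate 2. Library totals and both FPKM settings moved the median of all genes to -0.32, -0.30 and -0.37, and relative to it Lpcat1 was at 0.02, 0.14 and 0.02 and Acsl4 at 1.16, 1.08 and 1.21. Acot2 was at -0.14 and -0.17 in the FPKM settings and -0.48 without ACS replicate 2. Tecr was at -0.26 with library totals, -0.25 and -0.25 in the FPKM settings, -0.25 without both ji libraries, -0.06 without ACS replicate 3 and -0.18 without control replicate 3. With 1 library left out the lowest and highest values were -0.45 and 0.14 for Acsl3, -0.17 and 1.18 for Acsl5, -0.69 and 0.41 for Lpcat1, -0.35 and 1.95 for Lpcat2, -0.25 and 0.0080 for Lpcat3, -0.48 and 0.80 for Acot2 and -0.18 and 0.16 for Tecr.

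The share of Acsl4 in its family was higher in ACS by 6.15 to 13.8 points with any library left out, by 12.5 points from counts and by 14.2 points without both ji libraries. With the replicate block it was 10.8 points (exact sign-flip permutation p = 0.25, the smallest possible), and the block changed no call of a member. It ended the call of Pla2g4b (adjusted p = 0.0711), and over all genes gave 442 higher and 63 lower. Same-numbered libraries deviated from their group means with r from -0.0629 to 0.0397 over genes. They thus showed no shared deviation, which does not settle whether they were paired. The log2 ratio of Acsl4 to Acsl1 was higher by 1.26 to 2.19 with any library left out. The Acsl3 share differed by -1.29 points (2.32 with all libraries) without both ji libraries. Without ACS replicate 1 the shares of Lpcat1, Lpcat2 and Lpcat3 differed by -1.49, -0.30 and 1.79 points, against 0.41, 2.87 and -3.28 with all libraries, and that of Lpcat1 by -0.25 without control replicate 2. Over leave-one-out settings the Lpcat shares ranged from -1.49 to 1.4 for Lpcat1, -0.30 to 4.54 for Lpcat2 and -5.94 to 1.79 for Lpcat3.

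Over all genes 442 were higher and 91 lower. With 1 library left out these ranged from 0 to 1286 and 0 to 398, and leaving out any control library gave 0 of either. Lower genes were 228 with library totals. Higher and lower genes were 1316 and 428 with DESeq2, 249 and 268 with limma on log2(FPKM + 1), 755 and 153 with no filter, 248 and 32 with a term for the ji libraries, 171 and 30 without both, and 1059 and 356 with quality weights. Higher genes were 262 with limma-voom and 199 with log2(FPKM + 0.1).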

Other observations

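Among enzymes beside the 8 genes, chosen here after their values were seen, several had groups that did not overlap but did not pass in edgeR. Of all tested genes 31.5% had groups that did not overlap, 16.7% higher and 14.8% lower in ACS. Agpat9, the glycerol-3-phosphate acyltransferase now called Gpat3, measured 44.0 ± 20.3 CPM in ACS and 13.2 ± 4.40 CPM in control muscle (SD, n = 3 each), with separated groups and an adjusted p of 0.0515 in edgeR. Its log2 fold change was 1.73, or 1.31 without ACS replicate 1 (adjusted p = 0.0463 in edgeR). Acot11, a thioesterase, measured 24.0 ± 13.1 CPM in ACS and 8.39 ± 0.638 CPM in control muscle, and Acot13, a thioesterase of mitochondria, 20.1 ± 3.70 CPM in ACS and 33.9 ± 1.29 CPM in control muscle (SD, n = 3 each; adjusted p = 0.0763 and 0.109 in edgeR). Leaving out ACS replicate 1 gave Acot11 a log2 fold change of 1.87 (1.52 with all libraries) and Acot13 one of -0.74 (-0.75 with all). Alox5ap, which presents arachidonic acid to 5-lipoxygenase in leukocytes, measured 28.0, 2.01 and 4.91 CPM in ACS replicates 1, 2 and 3, against 1.07, 1.11 and 0.702 CPM in control replicates 1, 2 and 3. Its log2 fold change was 3.58 (adjusted p = 0.0614 in edgeR), and 1.84 without ACS replicate 1, when the ACS mean was 3.46 CPM in place of 11.6 CPM.

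Over the 6 libraries Lpcat2 and Acsl5 correlated at r = 0.935 in log2 CPM and Acsl1 and Lpcat2 at -0.871, while Acsl4 and Lpcat3 stood at -0.495. These are descriptions over 6 libraries that share ACS replicate 1.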
